A study of Mus musculus with 6 samples.

Results

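The regions described here are the 3164 consensus peaks that were found in cells held at 1% O2 and at neither 21% O2 nor <0.1% O2, out of 41308 consensus peaks in all (7.66%). GL261, a mouse glioma cell line that here stably carried pEGFP-N1, was kept at 21% O2 or exposed for 16 h to 1% or <0.1% O2, and cells were fixed with formaldehyde before they left hypoxia. ATACseq libraries were made from 2 replicates at each of the 3 oxygen levels, 6 libraries in all, and the labels do not say whether the replicates were separate cultures. To find the regions, the peaks of the 2 replicates of a condition were intersected, shared stretches over 200 bp were kept, and the stretches of all conditions were merged. A region was counted at 1% O2 only when it held a stretch from 1% O2 and none from the other conditions. The regions were thus selected on the presence of a peak in each library, and their presence and height are given as a description with no test.

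In ATACseq the Tn5 transposase cuts DNA that is not protected by nucleosomes, so a peak marks open chromatin, most often a promoter, an enhancer or an insulator. Cells answer low oxygen mainly through the hypoxia-inducible factors (HIFs), which are stabilised when oxygen-dependent prolyl hydroxylases slow down and which bind a short hypoxia response element (HRE) at their target genes. AP-1, a dimer of FOS, JUN and related proteins, opens enhancers in response to growth and stress signals, and CTCF is the main insulator protein, which holds the anchors of chromatin loops. At severe hypoxia other stress pathways join the HIF response.

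Stretches of 6 of the regions are shown because the AP-1, CTCF and HRE motifs counted further on can be read in them. Each is 200 bp of the plus strand of mm10 (GRCm38), centred on the peak summit, and lies outside annotated exons. Capitals mark AP-1 (TGANTCA), HRE (ACGTG or GCGTG) and CTCF motifs on either strand. The first 3 hold an AP-1 motif, from upstream of *Agfg1* (chr1:82834656-82834855), near *Atf3* (chr1:191222129-191222328) and from an intron of *Ahnak* (chr19:9058580-9058779). The next 2 hold a CTCF motif together with an HRE motif, from upstream of *Arhgap23* (chr11:97400430-97400629) and from an intron of *Col3a1* (chr1:45314014-45314213). The last, near *Tubb4b* (chr2:25228591-25228790), was among the tallest peaks with no counterpart in another library and holds none of the 3 motifs.
Agfg1: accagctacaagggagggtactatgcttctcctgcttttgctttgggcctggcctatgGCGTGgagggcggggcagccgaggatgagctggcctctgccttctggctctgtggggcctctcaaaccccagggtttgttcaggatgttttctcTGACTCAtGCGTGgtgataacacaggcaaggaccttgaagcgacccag
Atf3: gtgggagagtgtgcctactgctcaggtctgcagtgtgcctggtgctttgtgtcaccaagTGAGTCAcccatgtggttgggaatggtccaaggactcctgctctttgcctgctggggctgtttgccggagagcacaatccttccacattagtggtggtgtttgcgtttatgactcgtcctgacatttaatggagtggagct
Ahnak intron: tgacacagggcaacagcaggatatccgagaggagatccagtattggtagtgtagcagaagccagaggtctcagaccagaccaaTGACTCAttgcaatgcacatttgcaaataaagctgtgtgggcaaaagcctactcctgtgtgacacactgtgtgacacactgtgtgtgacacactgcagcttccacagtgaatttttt
Arhgap23: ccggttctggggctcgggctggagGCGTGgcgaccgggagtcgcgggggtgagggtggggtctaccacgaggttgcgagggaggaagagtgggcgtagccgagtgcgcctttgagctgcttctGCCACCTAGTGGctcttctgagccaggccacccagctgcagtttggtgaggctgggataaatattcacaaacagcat
Col3a1: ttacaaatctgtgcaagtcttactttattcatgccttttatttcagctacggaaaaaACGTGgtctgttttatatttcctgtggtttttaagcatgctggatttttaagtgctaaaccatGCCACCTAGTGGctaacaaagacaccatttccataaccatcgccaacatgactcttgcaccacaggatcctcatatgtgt
Tubb4b: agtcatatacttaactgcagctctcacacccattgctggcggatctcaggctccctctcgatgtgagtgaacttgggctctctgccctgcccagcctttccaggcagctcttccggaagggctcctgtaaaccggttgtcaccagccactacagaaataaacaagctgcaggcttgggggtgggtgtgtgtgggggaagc

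The regions were mostly low, narrow peaks, and most of them were not confined to the libraries at 1% O2. Of the 3164 regions, 762 (24.1%) overlapped no peak in any of the other 4 libraries, 1483 overlapped a peak in 1 of them, 837 in 2 and 82 in 3. A peak was called on 375 regions (11.9%) in replicate 1 at 21% O2 and on 934 (29.5%) in replicate 2. At <0.1% O2 a peak was called on 1502 regions (47.5%) in replicate 1 and on 592 (18.7%) in replicate 2. The commonest pattern, in 1118 regions (35.3%), was a peak in 1 library at <0.1% O2 and none at 21% O2, whereas 365 regions (11.5%) had a peak in 1 library at 21% O2 and none at <0.1% O2, and 775 (24.5%) had 1 of each. Most regions thus had a peak in at least 1 library of another condition, without the second replicate that the rule asks for.

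Peak height, the fragment pileup at the summit divided by the mean coverage of the genome in that library, ran from 4.44 through a median of 10.2 to 217 in replicate 1 at 1% O2 and from 4.34 through 9.35 to 92.2 in replicate 2. Where a peak was also called elsewhere, its median height was 8.34 and 9.33 in the libraries at 21% O2, with 8.96 and 8.02 at <0.1% O2. Peaks found at both hypoxic levels and not at 21% O2 had median heights of 13.3 and 12.4 in the libraries at 1% O2, and peaks found in every condition 37.2 and 33.1. The heights at 1% O2 differed by no more than a factor of 2 between replicates in 3119 regions (98.6%), with an SD of 0.36 for the log2 ratio. The shared stretch had a median length of 279 bp, against 657 bp over all consensus peaks. Regions just inside the limit, with a stretch over 200 bp and up to 250 bp, numbered 883 and had a median height of 8.54, and 144 stretches of 150 to 200 bp that missed it had a median of 7.60.

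Depth and the narrowest peak width differed between the lists, and their part in the presence of a region was not tested. The number of peaks was 42807 and 41783 in the libraries at 1% O2, 33006 and 36188 in the normoxic libraries, and 43554 and 39348 in those at <0.1% O2. No read totals came with the lists. Mean genome coverage, recovered from the peaks, was 2.93 and 2.99 at 1% O2, lower in the normoxic libraries (2.16 and 2.36) and higher at <0.1% O2 (3.35 and 3.18). At the coverage of the shallowest library, 3046 regions (96.3%) would still have passed the lowest p-value of its list had their height and background stayed as at 1% O2. All 3164 would have passed at <0.1% O2, but coverage there was higher than at 1% O2, so nothing was scaled down. That outcome was close to fixed in advance and says nothing about depth. Of the 2789 regions with no peak in that shallowest library, 2288 would have passed and were also as wide as its narrowest peak. With the same number of top peaks taken from every list, however, 1300 peaks were found at 1% O2 only. The narrowest peak was 230 and 226 bp in the libraries at 1% O2 but 246 and 239 bp at 21% O2 and 242 and 248 bp at <0.1% O2, and 518 regions had a peak narrower than 248 bp. With a common minimum width of 248 bp in every list, 2697 peaks were found at 1% O2 only and 2804 at <0.1% O2 only, so the order of these 2 numbers turned. Before that step it was 3164 against 2521.

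**Figure D1:**
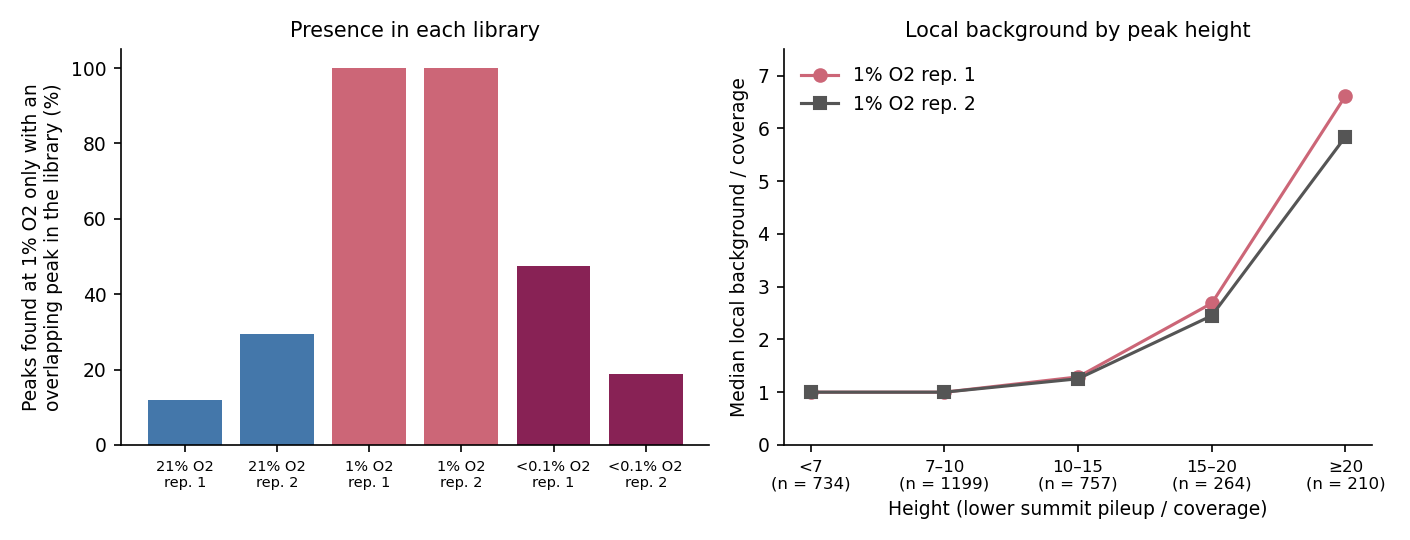
Left, the percentage of the 3164 regions on which a peak was called in each library (bars from 0), at 100% in both libraries at 1% O2 by construction and between 11.9% and 47.5% in the other 4. Right, the local background at the summit over genome coverage (points, medians for replicates 1 and 2 at 1% O2) by height of the region, which was 1 for regions under a height of 7 and 6.62 and 5.84 for those of at least 20.

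Taller regions lay in a higher local background and closer to strong peaks. Height and background are tied by the peak calling, which asks a taller pileup where the local background is higher. Among 734 regions with a height under 7, taken as the lower of the 2 replicates, the median background at the summit equalled genome coverage in both replicates. Their median distance to the nearest peak found in every condition was 24274 bp. Among 210 regions with a height of at least 20 the median background was 6.62 and 5.84 times genome coverage and the median distance was 2387 bp. The median fold over background was 5.09 and 4.98 under a height of 7, highest at 8.01 and 7.76 between 10 and 15, and 4.37 and 4.48 from a height of 20. Of these 210 regions 128 had a peak under 300 bp wide, and 58 (27.6%, against 24.1% of all 3164 regions) overlapped no peak in another library. Over all 3164 regions the narrower peak was under 248 bp in 16.4% and from 248 to under 300 bp in 39.6%. The part that neighbouring peaks and background play in the presence of a region was not tested.

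To see how often such peaks were called in libraries that did not choose them, peaks were chosen within the 3 libraries of 1 replicate number. They were then looked up in the 3 of the other, each library separately. A peak called again at 1% O2 could therefore also be called at another level, and recurrence at 1% O2 alone was not measured. Of 3952 peaks found in replicate 1 at 1% O2 alone, 40.3% (95% interval 38.8 to 41.9) were called in replicate 2 at 1% O2, 19.8% at 21% O2 and 20.2% at <0.1% O2. In the other direction, of 3928 peaks chosen in replicate 2, 50.2% (48.6 to 51.7) were called in replicate 1 at 1% O2, 10.2% at 21% O2 and 41.0% (39.5 to 42.6) at <0.1% O2. The share was highest at 1% O2 in both directions, and in the second direction the share at <0.1% O2 came close to it. Peaks chosen at <0.1% O2 alone came back in 30.8% and 51.4% at <0.1% O2 and in 24.4% and 31.8% at 1% O2. These intervals cover the counting of peaks only.

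**Figure D2:**
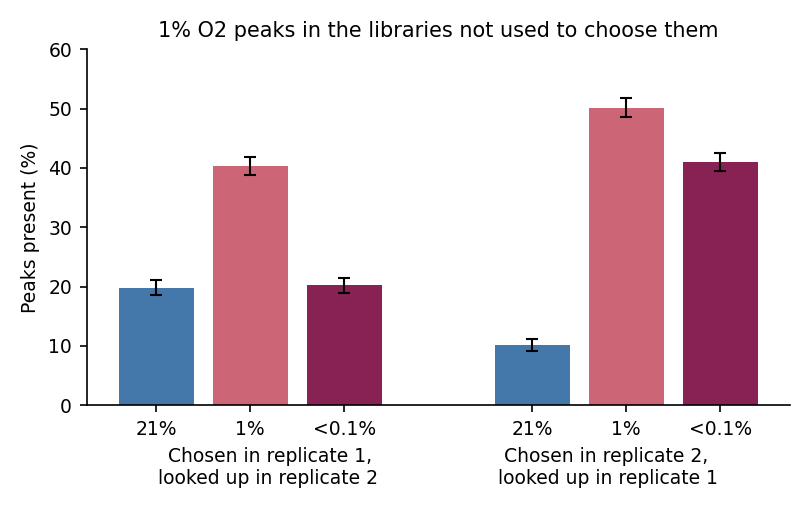
Percentage of peaks, chosen at one oxygen level in 1 replicate, that were called in each library of the other replicate (bars from 0, with exact binomial 95% intervals). Peaks chosen at 1% O2 came back in 40.3% and 50.2% at 1% O2, and in 20.2% and 41.0% at <0.1% O2.

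Most of the regions were distal. Of the 3164 regions, 554 lay within 2000 bp of an annotated start site (17.5%, 95% interval 16.2 to 18.9), which was 3.68% of all 15064 promoter peaks. Exons outside promoters held 226 (7.14%), introns 1202 (38.0%) and the space between genes 1182. The promoter share was 11.9% for peaks found at <0.1% O2 only, 14.3% for those at both hypoxic levels, 21.2% for those at 21% O2 only and 45.8% for those in every condition. Within 500 bp of a coding start site stood 225 regions, 2.03% of the 11088 consensus peaks there. A peak found in every condition lay within 10 kb of 1297 regions (41.0%), against 30.2% of the peaks at <0.1% O2 only, and within 10 kb of 53.4% of the promoter regions. Another region of the same kind lay within 10 kb of 215 (6.80%). Their share of the consensus peaks ran from 6.11% on chromosome 13 to 9.61% on chromosome 15 and was 0 of 10 on the Y chromosome.

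The regions had a median GC content of 50.8%, measured in 300 bp about the summit, against 46.0% for peaks found at <0.1% O2 only, 49.0% for those at both hypoxic levels, 49.0% for those at 21% O2 only and 54.3% for those in every condition. An AP-1 motif was present in 767 regions (24.2%, 22.8 to 25.8), against 40.1% (38.1 to 42.0) of the peaks at <0.1% O2 only, 41.2% of those at both levels, 16.0% of those at 21% O2 only and 26.0% of all consensus peaks. A CTCF motif was present in 276 regions (8.72%, 7.76 to 9.76), against 3.61% (2.92 to 4.41) at <0.1% O2 only, 4.96% at both levels, 7.93% at 21% O2 only and 3.73% of all consensus peaks. The HRE motif was found in 1022 regions (32.3%, 30.7 to 34.0), against 25.9% at <0.1% O2 only, 29.3% at both levels, 34.9% at 21% O2 only and 42.1% of all consensus peaks. The sequences printed above near *Agfg1*, *Atf3* and *Ahnak* are among the 767, and those of *Arhgap23* and *Col3a1* among the 276. In the 762 regions with no peak in another library the shares were 22.6% for AP-1, 9.32% for CTCF and 31.6% for HRE. A match to these letters is a description of the sequence and not a bound site.

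**Figure D3:**
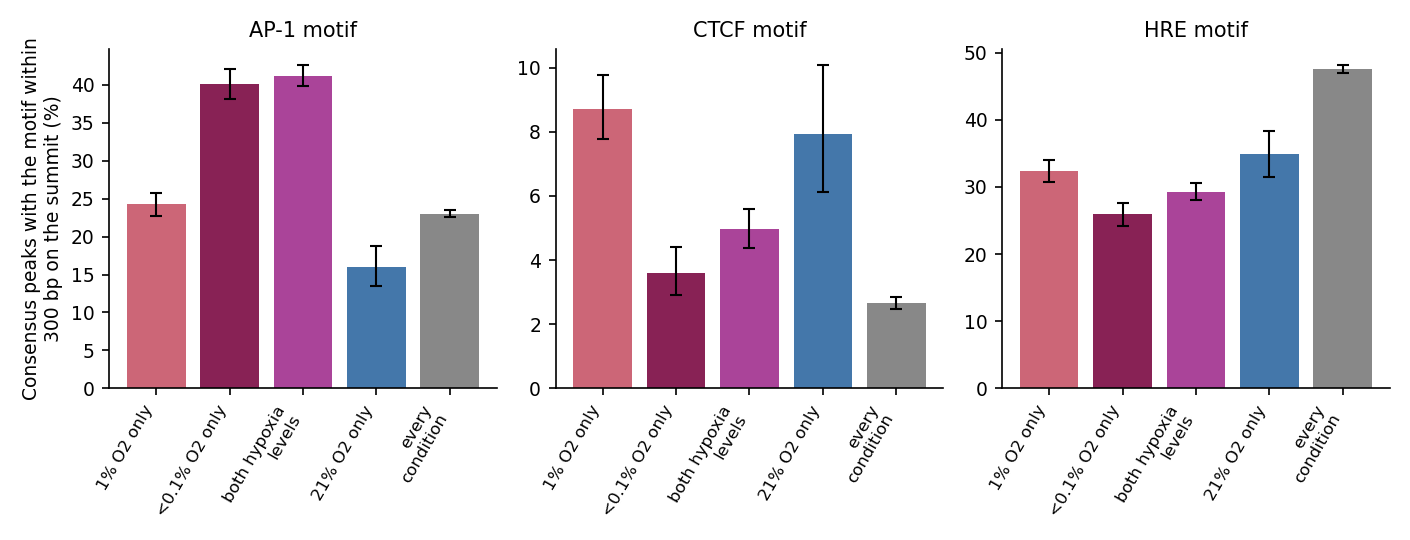
Percentage of consensus peaks with an AP-1, CTCF or HRE motif in 300 bp about the summit, by the conditions in which the peak was found (exact binomial 95% intervals). For peaks at 1% O2 only the shares are 24.2%, 8.72% and 32.3%, and for peaks at <0.1% O2 only 40.1%, 3.61% and 25.9%.

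Base composition and width differed between the classes, so the shares were also set side by side within bins. In the bins of GC content up to 60%, AP-1 motifs were rarer at 1% O2 only than at <0.1% O2 only, for example 33.0% against 44.1% and 25.9% against 42.5% in the bins next above the lowest. Above 60% GC the order turned, at 12.2% against 5.9%, where only 34 peaks at <0.1% O2 only remained. CTCF motifs were more frequent at 1% O2 only than at <0.1% O2 only in every bin, for example 9.9% against 2.9%. Peaks at 21% O2 only had a higher CTCF share than the regions below 40% GC (12.8% against 5.0%, where they numbered 47) and from 50% to 55% GC (12.4% against 9.6%), and peaks at both hypoxic levels had a higher one below 40% GC (6.3%). HRE shares were close in the lower bins, such as 22.1% against 21.3%, and from 55% to 60% GC the order turned, at 36.1% against 42.1%. By width of the narrower peak, from under 248 bp to at least 350 bp, the AP-1 share of the regions was 29.7%, 22.1%, 24.7% and 23.7%, against 41.0%, 38.8%, 42.3% and 39.8% at <0.1% O2 only. The CTCF share was 8.5%, 11.2%, 7.9% and 5.5%, against 6.6%, 5.3%, 3.6% and 1.6%. By place, CTCF motifs were rarest in promoter regions (4.2%) and most frequent in exons (17.3%), and AP-1 motifs ran from 13.7% in exons to 27.4% between genes.

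Both motifs were concentrated at the summit, which was not used to choose the regions. AP-1 matches stood at 15.8 per 100 regions within 50 bp of the summit, 4.69 times the density per base found 100 to 200 bp away. CTCF matches stood at 7.59 per 100 regions, with 240 matches within 50 bp of the summit and 24 at 100 to 200 bp. HRE matches stood at 17.6 per 100 regions, with a ratio of 1.24. At <0.1% O2 only the ratio was 5.404 for AP-1 and 1.10 for HRE, with 82 and 7 CTCF matches in the same windows, so AP-1 and CTCF matches were concentrated at the summit in both classes.

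**Figure D4:**
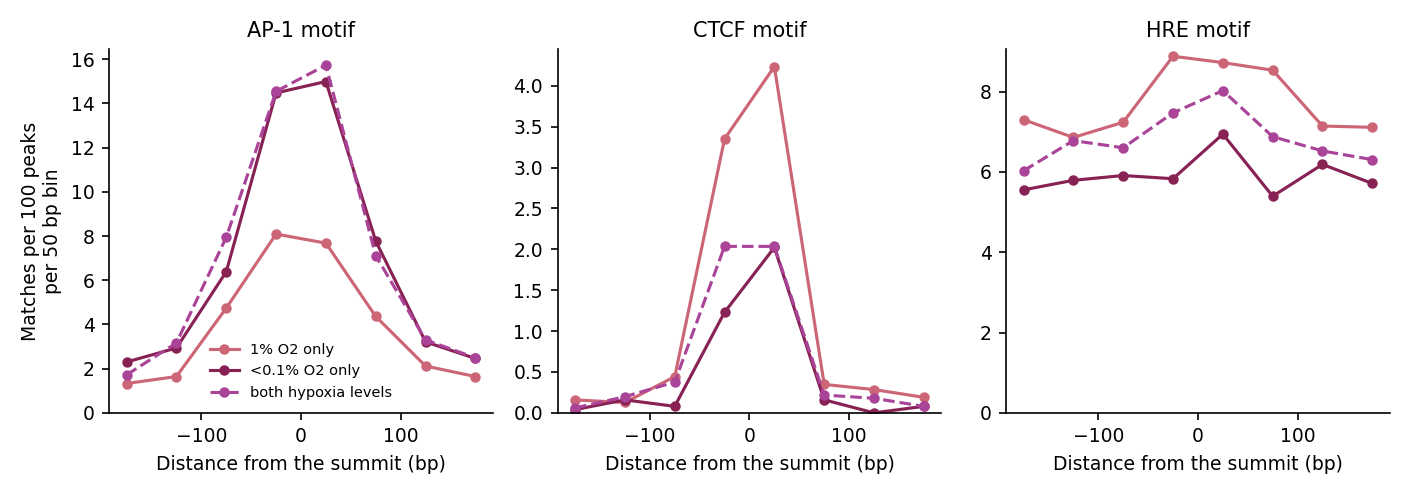
Matches per 100 peaks in bins of distance from the summit (bp), for AP-1, CTCF and HRE motifs in peaks at 1% O2 only and at <0.1% O2 only. AP-1 and CTCF matches peak at the summit, with 15.8 and 7.59 matches per 100 regions within 50 bp at 1% O2 only, and HRE matches are nearly flat, with a ratio of 1.24.

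The test over libraries used condition-private peaks, which are the peaks of a single library that overlap no peak in the 4 libraries of the other conditions. Private peaks can be shared by the 2 libraries of a condition, which makes these libraries alike in part by construction. They were not defined anew for each regrouping of the libraries, so the p-values describe the separation only. There were 2597 and 2139 such peaks at 1% O2, 523 and 1018 at 21% O2, with 3381 and 1874 at <0.1% O2. Their AP-1 share was 23.2% and 24.5% at 1% O2, 11.9% and 14.8% at 21% O2, with 37.9% and 35.8% at <0.1% O2. The libraries at 1% O2 lay between the other conditions, so the mean over them differed from the other 4 by -1.27 points (exact permutation test, two-sided, p = 0.867, n = 2 and 4). The CTCF share was 8.12% and 9.21% at 1% O2, 6.12% and 7.56% at 21% O2, with 3.08% and 3.95% at <0.1% O2. Both libraries at 1% O2 were above the other 4, by 3.49 points on average (exact p = 0.133), and the libraries at 21% O2 were nearer to them than those at <0.1% O2. The CTCF comparison was not planned beforehand. In peaks at least 300 bp wide, an alternative chosen after seeing the data, the CTCF libraries overlapped (exact p = 0.467). Their shares were then 6.48% and 8.38% at 1% O2 and 6.92% and 8.09% at 21% O2. The median GC content was 50.7% and 50.0% at 1% O2, 48.0% and 49.0% at 21% O2, with 45.7% and 45.3% at <0.1% O2, again with no overlap (difference 3.33 points, exact p = 0.133). The HRE share was 29.2% and 30.6% at 1% O2, 30.8% and 29.7% at 21% O2, with 26.1% and 25.6% at <0.1% O2, and the groups overlapped (difference 1.86 points, exact p = 0.467). They did not overlap in windows of 200 bp (2.44 points, exact p = 0.133) or 500 bp (3.10 points, exact p = 0.133) or in peaks at least 300 bp wide (4.001 points, exact p = 0.0667), and the difference turned to -1.43 points when standardised over bins of GC content (exact p = 0.267). The promoter share was 15.5% and 13.0% at 1% O2, 18.7% and 18.3% at 21% O2, with 10.2% and 11.5% at <0.1% O2 (difference -0.41 points, exact p = 0.933).

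Both libraries at 1% O2 lay beyond the other 4 in 9 of 23 features of the private peaks (39.1%), above them in 4 and below them in 5. Since the libraries of a condition can share private peaks, some such separation arises by construction, and the share expected by chance was not worked out. The share with an E-box of the letters CAGCTG, present in 20.6% of all consensus peaks, was 24.5% and 22.9% at 1% O2 and between 15.1% and 19.6% in the other libraries (exact permutation p = 0.0667, n = 2 and 4). The TEAD motif GGAATGT, bound by the partners of YAP and present in 5.66% of all consensus peaks, was in 4.005% and 4.30% of private peaks at 1% O2, 5.54% and 6.68% at 21% O2, with 9.76% and 9.07% at <0.1% O2 (exact p = 0.133). The RUNX motif TGTGGTT (6.27% of all consensus peaks) was in 7.01% and 6.73% at 1% O2 and between 8.54% and 10.1% elsewhere (exact p = 0.0667). The C/EBP-ATF motif TGATGNAA (4.09% of all) was in 3.43% and 3.27% at 1% O2 and between 5.21% and 6.74% elsewhere (exact p = 0.0667). Means at 1% O2 and in the other libraries were 0.77% and 0.44% for NRF1 (2.08% of all). They were 11.2% and 13.5% for C/EBP (10.7% of all) and 8.82% and 11.0% for STAT (9.14% of all), with an exact permutation p of 0.0667 for each. The motif shares in this paragraph were not standardised over bins of GC content, which differed too. With 2 libraries against 4 no p can fall below 0.0667, and over the 23 features the smallest Benjamini-Hochberg adjusted exact p was 0.256, so none passed a threshold of 0.05.

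**Figure D5:**
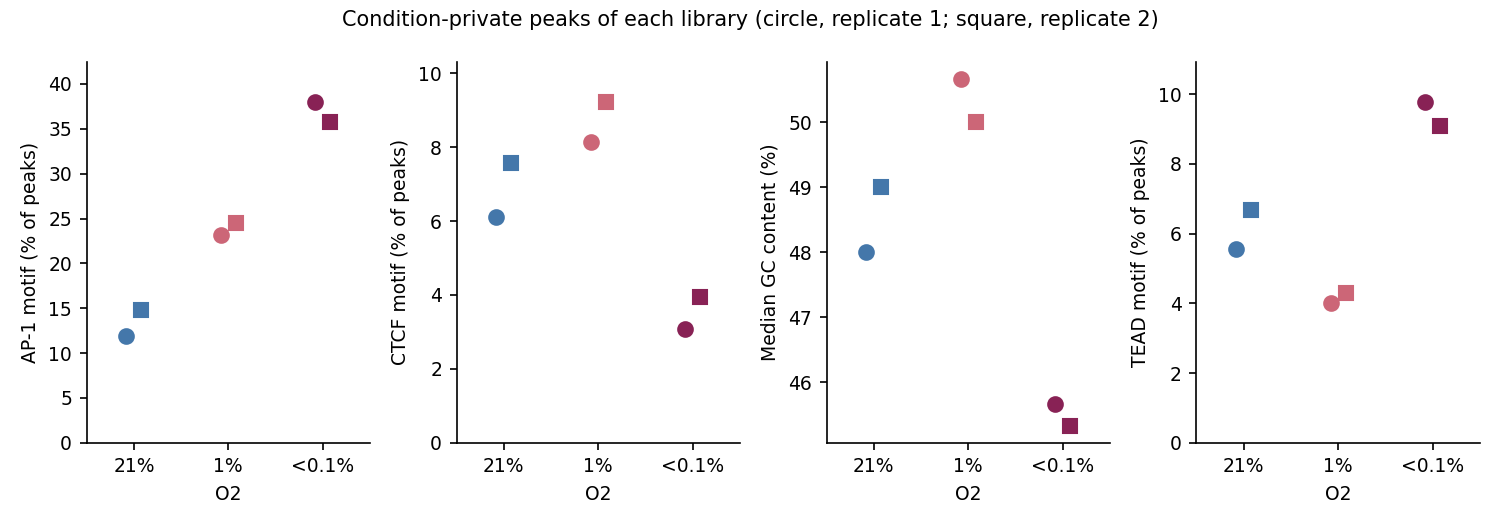
AP-1, CTCF and TEAD motif shares (% of peaks, axes from 0) and median GC content (%, axis not from 0) of condition-private peaks in each of the 6 libraries, with circles for replicate 1 and squares for replicate 2. AP-1 shares at 1% O2 (23.2% and 24.5%) lie between those at 21% and <0.1% O2, and CTCF shares and GC content are highest and TEAD shares lowest at 1% O2.

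Among the 762 regions with no peak in another library, the 10 tallest had heights of 32.7 to 44.4 in both replicates, except for 1 value at *Atg101*, and stood between 306 and 4357 bp from a peak found in every condition. The tallest lay in an intron of *Ppargc1b*, a coactivator that drives mitochondrial gene expression, with heights of 43.4 and 44.4 in the 2 replicates at 1% O2 and no peak in the other 4 libraries (chr18:61394852-61395073). At *Pxn*, which encodes the focal adhesion adaptor paxillin, the region covered the start site (chr5:115506525-115506911, GC 69.3%) with heights of 39.97 and 42.1. A region 4652 bp from the start of *Agfg1*, which encodes an ArfGAP-like protein with FG repeats, had heights of 38.9 and 43.4 and holds the AP-1 and HRE motifs printed above. Near *Tubb4b*, a beta-tubulin gene, the heights were 41.0 and 39.1. The fold over background at the summit was low there (2.57 and 2.78), as it was near *Atg101* in replicate 2 (2.06). It was also low in replicate 1 (2.75) at the region nearest to *Gamt*, which lay in an intron of *Ndufs7*. The region near *Atg101*, whose product starts autophagy, showed 217 in replicate 1, where it fell in a peak 1943 bp wide, and 39.4 in replicate 2. In introns of *Rnf122*, a ubiquitin ligase gene, and *Trpv4*, a calcium channel gene, the heights were 38.6 and 38.1, and 33.8 and 36.4. The others were nearest to *Gamt*, a gene of creatine synthesis (34.5 and 34.7), *Hook2*, which links cargo to microtubules (38.3 and 32.7), and *Zeb1*, a transcription factor of epithelial-mesenchymal transition, whose start site was 217584 bp away (41.0 and 33.7).

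Of the 225 regions within 500 bp of a coding start site, the 10 tallest included *Pxn* and *Trpv4* and mostly had a peak in another library too. *Per1*, a repressor of the circadian clock, had heights of 60.5 and 47.8 at 1% O2 and 47.5 in replicate 1 at <0.1% O2 (chr11:69098784-69099020). *Metrn*, a secreted factor of glial cells, had 50.9 and 39.1 at 1% O2 and 34.3 in replicate 2 at <0.1% O2. *Rnd3*, a small GTPase that loosens the actin cytoskeleton, had 35.5 and 34.7 at 1% O2, 29.6 in replicate 1 at 21% O2 and 30.2 in replicate 1 at <0.1% O2. *Git1*, a scaffold of focal adhesions, had 40.6 and 30.7 at 1% O2, 34.8 in replicate 2 at 21% O2 and 26.3 in replicate 1 at <0.1% O2. At *Git1* the normoxic height lay within the range of the replicates at 1% O2, and at the other 3 the heights elsewhere lay below both. *Ggt7*, of the gamma-glutamyl transferase family, had 48.8 and 36.1 at 1% O2, 25.4 in replicate 2 at 21% O2 and 29.2 in replicate 2 at <0.1% O2. *Pik3ip1*, an inhibitor of PI3 kinase, had 35.5 and 34.1 at 1% O2 and 32.3 in replicate 1 at <0.1% O2, and *Ehd2*, a protein of caveolae, had 28.4 and 30.7 and 20.3 in the same library. *Pcdh1*, a protocadherin, had 28.7 and 28.1 and no peak elsewhere.

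When each region was given to the nearest coding start site within 100 kb, 2695 regions fell to 2312 genes, of which 1979 had 1 region, 284 had 2, 48 had 3 and 1 had 4. For the 6 genes named here, the number of consensus peaks of any kind was 20 at *Psd3*, 12 at *Arhgap23*, 10 at *Scgb1a1*, 10 at *Gsn*, 11 at *Rxra* and 12 at *Mtus1*. The gene with 4 was *Psd3*, an exchange factor for ARF6, where 15 of the 20 peaks were found in every condition, and all 4 regions were intronic with heights between 6.49 and 13.7 at 1% O2. The 3 regions of *Arhgap23*, which encodes a GTPase-activating protein, each held a CTCF motif, with heights of 56.4 and 51.1 upstream of the gene, 16.1 and 14.4 in an intron and 8.20 and 8.02 in an intron 1315 bp from an internal start site. The tallest of these was also called in replicate 2 at 21% O2, with 34.3, and the other 2 regions were called in 3 and 1 libraries of the other conditions. The 3 regions nearest to *Scgb1a1*, which encodes a secreted airway protein, all lay in introns of *Ahnak*, a gene for a giant scaffold protein, and the one printed above had heights of 25.6 and 24.7 with no peak elsewhere. *Gsn*, which encodes the actin-severing protein gelsolin, had 3 intronic regions, the tallest with 40.3 and 32.1 and no peak elsewhere. *Rxra*, the retinoid X receptor, and *Mtus1*, a microtubule-associated tumour suppressor, had 3 each.

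Gene lists of the hypoxia response held shares of the regions that their intervals do not set apart from the share over all peaks. Of the 156 consensus peaks nearest to HIF target genes of metabolism and survival, 7 were found at 1% O2 only (4.49%, 95% interval 1.82 to 9.03), against 7.47% of all peaks within 100 kb of a coding start site, which lies inside the interval. These 7 were at *Mxi1*, *P4ha1*, *Pkm*, *Hk2*, *Pfkfb4*, *Pgk1* and *Pfkp*, of which the last 5 are glycolytic genes or regulators of glycolysis. The region of *Mxi1*, a MYC antagonist, had heights of 19.5 and 18.4, no peak elsewhere and both an AP-1 and an HRE motif. That of *P4ha1*, a collagen prolyl hydroxylase, had 10.2 and 9.69, and 6.87 in replicate 1 at <0.1% O2. That of *Pkm* had 9.91 and 9.02, but also 11.6 in replicate 2 at <0.1% O2, above both, and 9.75 in replicate 2 at 21% O2, between them. *Slc2a1*, the glucose transporter GLUT1, had 6 consensus peaks and none at 1% O2 only, with 2 found in every condition, 3 at both hypoxic levels and 1 at <0.1% O2 only. *Vegfa*, the main angiogenic growth factor, had 6, of which 1 was at 1% O2 only (chr17:46041242-46041610, 8873 bp from the start site), with heights of 10.2 and 9.35 and also 10.2 in replicate 2 at 21% O2.

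The shares of the other gene lists ran from 3.64% to 8.77%, and each interval held the background of 7.47%. Angiogenic and secreted genes had 10 of 114 peaks at 1% O2 only (8.77%), among them 2 at *Tgfa*, an EGF receptor ligand. The AP-1 family had 5 of 66 (7.58%), at *Atf3*, *Maf*, *Batf*, *Fosl1* and *Fosl2*. The region near *Atf3*, a stress-induced repressor, had heights of 29.0 and 30.4 and 23.3 in replicate 1 at <0.1% O2, and holds the AP-1 motif printed above. Glial and glioma identity genes had 10 of 153 (6.54%), and the promoters of 23 of the 32 genes on this list carried a peak in all 6 libraries. In an intron of *S100b*, a calcium-binding protein of glia, the heights were 49.5 and 44.4 and 42.7 in replicate 1 at <0.1% O2. In an exon of *Sox10*, a transcription factor of the oligodendrocyte lineage, they were 30.7 and 26.7 with no peak elsewhere. Extracellular matrix and adhesion genes had 14 of 190 (7.37%). They included 3 regions in introns of *Cdh2*, which encodes N-cadherin, and 2 in *Col3a1*, a fibrillar collagen gene, where the region with the printed CTCF motif had 27.7 and 22.7 and also 18.1 in replicate 1 at 21% O2. TEAD and YAP targets and regulators had 7 of 97 (7.22%), with 2 each nearest to *Tead1*, *Vgll4* and *Tead4* and 1 to *Amotl1*. Those of *Vgll4* lay in introns of *Atg7*, 75162 and 72201 bp from the *Vgll4* start. The region 82 bp from the start of *Tead4* had 10.6 and 9.35 with no peak elsewhere. Unfolded protein and integrated stress response genes had 2 of 55 (3.64%), at *Eif2ak3*, which encodes the kinase PERK (11.96 and 15.7), and *Edem1*, which directs misfolded glycoproteins to degradation (7.17 and 7.35), with no peak elsewhere at either.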

How the data were processed

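ATACseq was measured in 6 GL261 libraries. Per the labels and the study's methods, the authors aligned reads to mm10 with Bowtie2 2.2.5 and called peaks in each library separately with MACS2 2.1.1.2, without pooling replicates. The submitters' processing notes also name Trimmomatic, Picard and deepTools. For every peak, the deposited lists hold its fold, which is the ratio of summit signal to background, and its p-value and q-value as -log10. Read counts were not used here.

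Pileup and background at each summit were recovered from the fold and p-value, with a tolerance of 0.01 on the -log10 p, for 100% of peaks. The lowest background in a list was read as the mean genome coverage. Start sites, exons and introns came from GENCODE M21 and sequence from GRCm38.p6 (RefSeq). Of the 3164 regions 3160 had a summit inside, and the midpoint stood in for the others. A total of 21 motifs were searched in 300 bp on both strands. A peak was private when it overlapped no peak of the other conditions. Two-sided exact permutation tests compared the libraries at 1% O2 with the other 4, adjusted over 23 features. Since the labels name no separate cultures, these p-values measure only the spread between these libraries. Exact binomial intervals cover counting only.

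Genes named were nearest to the 10 tallest regions with no peak elsewhere and the 10 tallest within 500 bp of a coding start site, the 6 genes with most regions, up to 3 genes per list, and *Slc2a1* and *Vegfa*. Genes tied for most regions were ordered by summed height. Other genes of the HIF, AP-1 and TEAD lists were named after their values were seen. Sequences were printed for regions on chromosomes other than 18 whose 200 bp lay outside exons. The regions and lists were chosen with earlier results of these data known. Alternatives covered the overlap, the q-value, equal list lengths, the promoter window, GC content, each replicate left out and a replicate block. Minimum widths, and all alternatives for CTCF and for motif shares of the regions, were chosen after seeing the data. The main CTCF comparison of private peaks and the AP-1 and CTCF shares of the regions were not planned beforehand either. The code was tested on simulated data. Scripts ran under samtools 1.23.1, pysam 0.24.0, scipy 1.17.1, pandas 2.3.3, numpy 2.4.6 and Python 3.11.15.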

Additional observations from a re-analysis of the deposited data

Results flagged for a closer look

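In 4 features of the condition-private peaks, both libraries at 1% O2 lay on one side of both libraries at 21% O2 and both at <0.1% O2 on the other. The 2 contrasts share the libraries at 21% O2, and the difference between them was not tested. For the CTCF motif share, the mean at 1% O2 was 1.83 points above that at 21% O2 and the mean at <0.1% O2 was 3.33 points below it (value -3.33), so the contrasts differed by 5.15 points. In peaks at least 300 bp wide, the CTCF shares at 1% O2 (6.48% and 8.38%) and at 21% O2 (6.92% and 8.09%) overlapped. For the median GC content the contrasts were 1.83 and -3.00 points and differed by 4.83 points. For the TEAD motif share they were -1.96 and 3.304 points, a difference of -5.26 points. For the C/EBP-ATF motif share they were -2.22 and 1.03 points, a difference of -3.25 points. No group held 4 or more libraries, so single libraries were not compared with the rest of their group.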

How the results depend on the processing

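The number of peaks found at 1% O2 only was 1875 with an overlap over 400 bp, 1300 with the 33006 top peaks of every list and 762 with no peak in any other library. With 1 library left out it ran from 1662, without replicate 2 at <0.1% O2, to 5956 and 6850 without replicates 1 and 2 at 1% O2. With common minimum widths of 248 and 300 bp, chosen after seeing the data, it was 2697 and 2262. The promoter share of these peaks was 22.6% with an overlap over 400 bp, 20.3% with a -log10 q of at least 10, 15.5% with no peak elsewhere, 9.89% with a window of 500 bp and 15.03% to 18.7% with 1 library left out. In the 2262 peaks found at 1% O2 only once every list was limited to peaks at least 300 bp wide, the AP-1 share was 27.2% and the CTCF share 7.34%, while among the 1392 original regions with both peaks that wide they were 24.1% and 6.54%. With no peak elsewhere the AP-1 share was 22.6%. The share seen again in the other replicate at 1% O2 was 36.8% and 46.4% with an overlap over 200 bp, 45.1% and 57.2% with a -log10 q of at least 10 and, for peaks chosen in replicate 1, 36.9% at 300 bp.

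Among private peaks, the promoter difference of -0.41 points turned to 1.56 with a -log10 q of at least 10, 3.42 against <0.1% O2 alone, 0.98 with a window of 500 bp, 0.18 with the common width and 1.69 at 300 bp, and ran from -1.90 to 0.95 with 1 library left out. The AP-1 difference of -1.27 was -6.53 with a -log10 q of at least 10 and -13.04 against <0.1% O2 alone, where the libraries did not overlap, turned to 0.70 when standardised over GC bins and ran from -5.69 to 3.01 with 1 library left out. It turned without replicate 1 (3.01) or 2 (2.29) at <0.1% O2. The HRE difference of 1.86 turned to -1.43 when standardised over GC bins. The GC difference (2.78 to 4.83) and the CTCF difference (1.67 to 5.71) kept their direction in the alternatives run, of which the replicate block cannot change it. Replicate numbers did not pair the libraries (correlations of deviations -0.051, -0.013 and 0.0079 over 28432 peaks). With a replicate block the exact permutation p was 1 for promoters, 1 for AP-1, 0.556 for HRE and 0.222 for GC and CTCF, where the smallest possible was 0.111, and the differences were unchanged by construction. With genes taken within 50 kb, the share of each list stayed inside its interval at 100 kb. When every list kept only peaks strong enough to pass in the least covered library, the number at 1% O2 only was 3178.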
